A study of Drosophila melanogaster with 20 samples.

Results

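The comparison described here is the stage dependence of the response to activated Thickveins (Tkv) in the Drosophila melanogaster wing: the response of pupal wings minus the response of larval wings. It used all 20 arrays of the series and all 15473 transcripts measured on them, and a transcript needed no minimum level to enter. The arrays fell into 4 groups of 5 by their titles. Pupal Tkv wings and pupal control wings were taken 24 h after pupa formation, and larval Tkv wings and larval control wings came from wandering larvae of the last instar. Tkv wings expressed activated Tkv from a UAS transgene under Gal4, and control wings came from the matched strain that lacks the UAS transgene. The sources used here do not name the Gal4 driver or the activating change in Tkv. All animals, controls included, grew at 18 °C and were held at 28 °C for 10 h before dissection, and 10 wings gave the total RNA of an array. A strain difference other than the transgene would enter both responses and cannot be told apart from it. On the log2 scale, a part of it that is equal at both stages cancels in the difference of the responses. A part that differs between stages stays in that difference.

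Tkv is a type I receptor of the BMP branch of TGF-beta signalling. It binds the ligand Decapentaplegic together with the type II receptor Punt and phosphorylates the transcription factor Mad, which then enters the nucleus with Medea and changes the transcription of target genes. In the larval wing disc the pathway is known for its part in growth and in patterning along the anterior-posterior axis, and in the pupal wing for its part in the differentiation of veins. The activated receptor signals without ligand, so cells that express it are exposed to the pathway whatever the normal ligand distribution at that stage.

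The response at a stage is the mean log2 intensity of Tkv wings minus that of control wings. The difference of the responses is positive where Tkv wings stood higher relative to controls in pupae than in larvae. This can come from a larger rise or a smaller fall in pupal wings. It was tested per transcript in limma (two-sided, Benjamini-Hochberg adjusted p under 0.05 over all transcripts), and a transcript is called below where it passed. Transcripts are listed by FlyBase ID alone. A RefSeq gene table gave a single symbol for 17 of the 15473, so neither tkv, the known targets of the pathway nor the marker genes of wing cell types could be looked up. The labels and the tissue were therefore not checked against expression. In dissected wings, fewer cells of a type and less RNA per cell cannot be told apart.

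The difference of the responses passed the limma test for 105 transcripts, 0.679% of those tested. It was positive for 67 (0.433%) and negative for 38 (0.246%). The response alone passed for 489 transcripts in pupal wings (3.16%) and 216 in larval wings (1.4%). Among the 105, the difference was at least 2-fold for 89 and at least 4-fold for 21, and its median size was 1.37 on the log2 scale. Over all 15473 transcripts the median size was 0.19, and 338 (2.18%) had a difference of at least 2-fold in either direction. The unadjusted p was under 0.05 for 1206 transcripts, or 7.79%. The count of 105 varied with the arrays used: it was 69 without replicate 3 of the larval controls, and 69, 57, 48, 59 and 62 where replicate 1, 2, 3, 4 or 5 was left out of every group. With the slide and the position of the array on it both in the model it was 66.

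Each of the 105 transcripts was placed in 1 of 4 classes by the sign of the difference and by the stage with the response of larger size. A larger rise in pupal wings was the most frequent class, with 54 transcripts (51.4% of the 105). A larger fall in pupal wings held 24 (22.9%), a larger rise in larval wings 14 (13.3%) and a larger fall in larval wings 13 (12.4%). Pupal wings thus had the larger response for 78 and larval wings for 27. These classes describe the fitted values that also gave the calls and carry no test of their own.

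**Figure D1:**
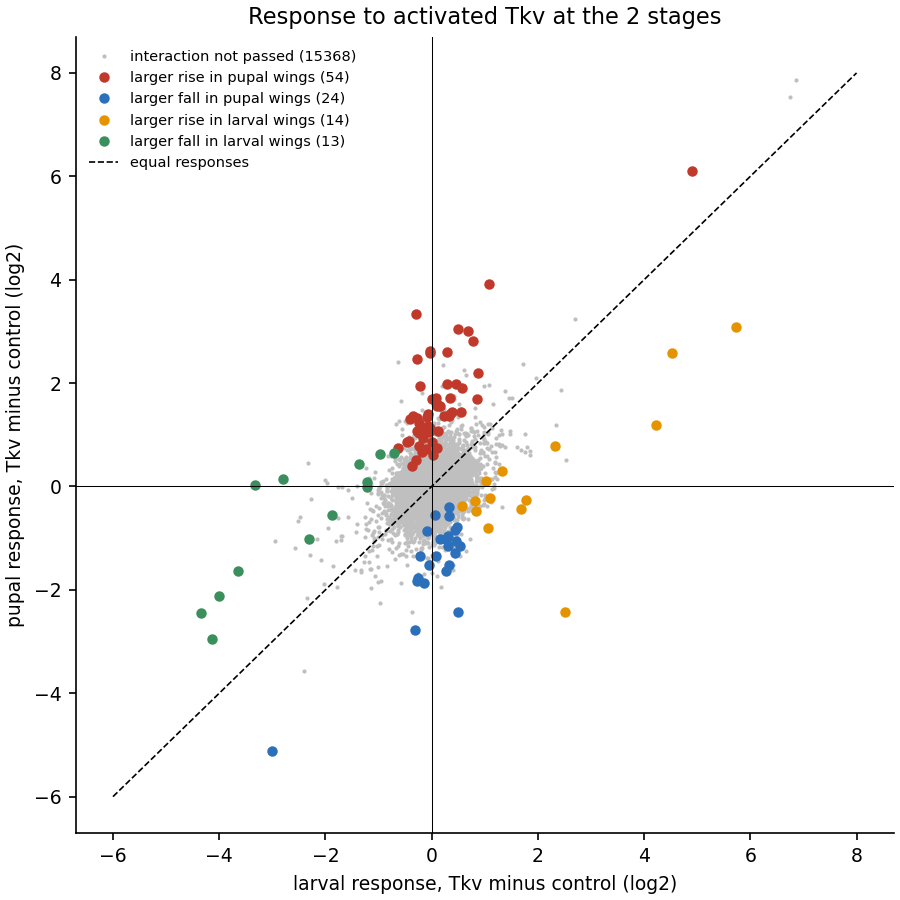
Pupal response against larval response for all 15473 transcripts, both as Tkv minus control wings on the log2 scale. The 105 transcripts whose difference passed the limma test are coloured by class, with 54 of them in the class with the larger rise in pupal wings, and the dashed line marks equal responses.

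The 54 transcripts with the larger rise in pupal wings had a median pupal response of 1.37 (range 0.39 to 6.10, log2) and a median larval response of -0.03 (range -0.63 to 4.90). All 54 rose in pupal wings by the limma test of that stage alone. Only 5 of them also rose in larval wings, each by less than in pupal wings. For 47 of the other 49 the 95% interval of the larval response lay within 2-fold of no change. The median difference of the responses was 1.33, and it reached 4-fold for 10 transcripts. Their median level was 10.35 in pupal Tkv wings against 9.16 in pupal control wings, and 9.73 in larval Tkv wings against 9.47 in larval control wings. The distribution of all normalized values had 2 modes, and a value is called dim or bright here by whether it lies under 8.64, the low point between them. Of these 54 transcripts, 12 had a bright mean in pupal Tkv wings against a dim mean in pupal controls, 27 were bright in all 4 groups and 8 dim in all 4.

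FBtr0071612 had the largest positive difference. In pupal wings its normalized log2 intensity was 8.69, 8.14, 8.54, 8.45 and 7.81 with Tkv, against 5.03, 5.03, 5.09, 4.93 and 4.86 in controls. In larval wings it was 5.67, 4.94, 5.02, 4.71 and 5.01 with Tkv, against 5.12, 5.33, 5.30, 5.82 and 5.21 in controls. All 5 pupal Tkv arrays lay above all other arrays, and the other 3 groups lay near the dim end of the scale. There the larval Tkv arrays overlapped both control groups, and the pupal controls lay just below the larval controls. The pupal response was 3.34 ± 0.18 and the larval response -0.29 ± 0.18 (SE). The difference was 3.63 ± 0.25, with a 95% interval of 3.10 to 4.16 (limma adjusted p = 8.15e-08). Within the 5 slides it was 3.11, 3.50, 3.74, 4.63 and 3.16.

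The 24 transcripts with the larger fall in pupal wings had a median pupal response of -1.23 (range -5.11 to -0.39) and a median larval response of 0.27 (range -3.01 to 0.53). All 24 fell in pupal wings by the limma test of that stage. In larval wings 1 of them fell, 1 rose and 22 did not pass, and for 21 of these 22 the interval of the larval response lay within 2-fold. The larval control mean was already dim for 10 of the 24. Where that mean lay near the dim end, a larval fall as large as the pupal one may not have been measurable. For FBtr0077375, picked out after its values were seen, the larval control mean was 5.38 and the pupal response -2.78. A larval fall of that size would have gone below 3.77, the lowest normalized value on any array. The median difference was -1.48. Median levels were 8.77 in pupal Tkv wings against 10.48 in pupal control wings, and 9.02 in larval Tkv wings against 8.94 in larval control wings. The mean was dim in pupal Tkv wings against bright in pupal controls for 7 of the 24, and 10 were bright in all groups.

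The 14 transcripts with the larger rise in larval wings had a median larval response of 1.50 (range 0.57 to 5.73) and a median pupal response of -0.25 (range -2.43 to 3.09). Of these, 13 rose in larval wings by the limma test of that stage. In pupal wings 3 of the 14 rose and 1 fell, and the others did not pass. Median levels were 12.31 in pupal Tkv wings against 10.47 in pupal control wings, and 10.64 in larval Tkv wings against 7.91 in larval control wings. Each of these medians was taken over the class within 1 group and can fall on a different transcript. The gap between the pupal medians is therefore not a typical pupal rise, and the median pupal response was -0.25. For 8 of the 14 the pupal control mean was at or above the larval Tkv mean. Other classes held such transcripts too. With the larger rise in pupal wings, the larval control mean was at or above the pupal Tkv mean for 17 of 54. With the larger fall in pupal wings, the larval control mean was at or below the pupal Tkv mean for 11 of 24. With the larger fall in larval wings, the pupal control mean was at or below the larval Tkv mean for 5 of 13. These levels come from the arrays that gave the calls and are a description.

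FBtr0081578, the second largest negative difference, belongs to this class. In pupal wings it read 13.98, 13.88, 13.84, 13.97 and 13.72 with Tkv, against 12.65, 12.91, 12.62, 13.00 and 12.24 in controls. In larval wings it read 13.31, 13.25, 13.40, 12.88 and 13.16 with Tkv, against 8.94, 8.62, 8.79, 9.40 and 9.10 in controls. Tkv and control arrays did not overlap at either stage, and the larval controls stood well below the other 3 groups. It rose by 1.20 ± 0.15 in pupal wings and by 4.23 ± 0.15 in larval wings (SE), a difference of -3.03 ± 0.22 with a 95% interval of -3.48 to -2.58 (limma adjusted p = 8.15e-08). Within the 5 slides the difference was -3.04, -3.66, -3.39, -2.50 and -2.58. The pupal control mean was 12.68, and the highest normalized value on any array was 15.84. A pupal rise as large as the larval one could therefore not have been measured for this transcript.

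The 13 transcripts with the larger fall in larval wings had a median larval response of -2.30 (range -4.34 to -0.71) and a median pupal response of -0.02 (range -2.94 to 0.64). Of these, 12 fell in larval wings by the limma test of that stage and 5 of them fell in pupal wings too, each by less. Median levels were 7.44 in pupal Tkv wings against 8.55 in pupal control wings, and 5.85 in larval Tkv wings against 8.44 in larval control wings. Here too the medians of 2 groups can fall on different transcripts, so the gap between the pupal medians is not a typical pupal fall. In larval Tkv wings all 13 had a dim mean, while the larval control mean was bright for 6.

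FBtr0082315, the second largest positive difference, belongs to this class. In pupal wings it read 4.40, 4.97, 4.72, 5.28 and 5.08 with Tkv, against 4.51, 4.56, 4.40, 5.69 and 5.14 in controls. In larval wings it read 5.42, 5.31, 4.73, 4.97 and 5.09 with Tkv, against 8.74, 8.41, 8.25, 8.64 and 8.16 in controls. The larval control arrays lay above all others, and the remaining 3 groups overlapped. The pupal response was 0.03 ± 0.22 and the larval response -3.34 ± 0.22 (SE), a difference of 3.36 ± 0.32 with a 95% interval of 2.70 to 4.02 (limma adjusted p = 4.86e-06). Within the 5 slides the difference was 3.20, 3.51, 3.84, 3.25 and 3.00.

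The dim pupal level of FBtr0082315 was shared by 3 other transcripts of the class, picked out after their values were seen. Mean levels in pupal controls were 4.86 for FBtr0082315, 4.90 for FBtr0100644, 4.59 for FBtr0079603 and 4.47 for FBtr0082249. The lowest normalized value on any array was 3.77. A pupal fall as large as the larval one could not have been measured for these 4. The same held for FBtr0079839, 1 of the 5 that fell at both stages. Its pupal control mean was 7.31, its pupal response -2.45 and its larval response -4.34. Over the whole class the pupal control mean was dim for 7 of 13.

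**Figure D2:**
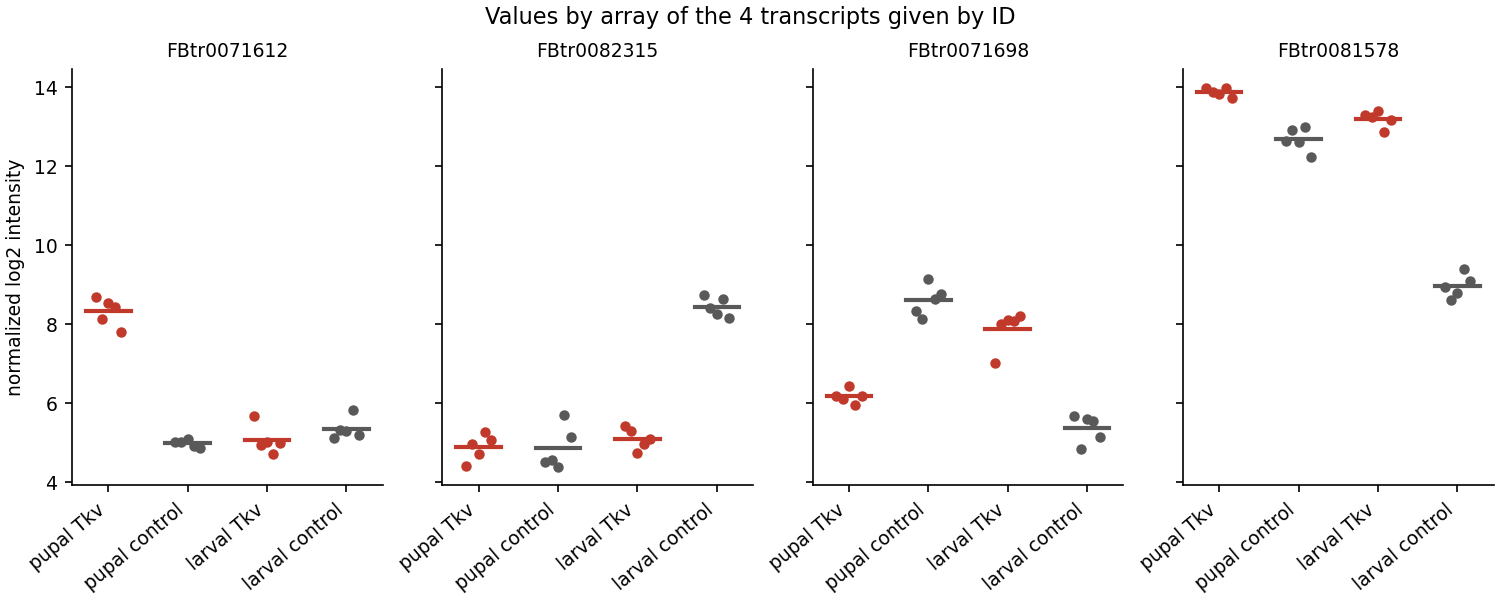
Normalized log2 intensity of the 4 transcripts given by ID for their largest differences, with 1 point per array in replicate order and a line at the mean of each group of 5. FBtr0071612 is raised in pupal Tkv wings, FBtr0082315 is lowered in larval Tkv wings and at the dim end in pupal wings, FBtr0071698 moves in opposite directions at the 2 stages, and FBtr0081578 is raised at both, by 1.20 in pupal and 4.23 in larval wings.

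Opposite responses that passed the test at both stages were found for 2 transcripts. FBtr0071698 had the largest difference of all. In pupal wings it read 6.19, 6.12, 6.43, 5.95 and 6.20 with Tkv, against 8.35, 8.12, 9.14, 8.65 and 8.76 in controls. In larval wings it read 7.01, 8.01, 8.10, 8.09 and 8.21 with Tkv, against 5.68, 4.85, 5.60, 5.55 and 5.14 in controls. Tkv arrays lay below all controls in pupae and above all controls in larvae, and larval Tkv levels came near those of pupal controls. It fell by 2.43 in pupal wings and rose by 2.52 in larval wings (SE 0.22 each), a difference of -4.95 ± 0.32 with a 95% interval of -5.61 to -4.28 (limma adjusted p = 3.98e-08). Within the 5 slides the difference was -3.49, -5.16, -5.21, -5.25 and -5.62, and the smallest of these was on the slide whose larval Tkv array read 7.01.

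The other, FBtr0083371, was singled out after its values were seen. In pupal wings it read 10.61, 10.77, 10.88, 11.14 and 11.03 with Tkv, against 11.94, 12.06, 12.06, 12.22 and 11.91 in controls. In larval wings it read 9.59, 9.90, 9.48, 9.66 and 9.53 with Tkv, against 8.93, 9.40, 9.24, 9.19 and 8.74 in controls. The groups did not overlap at either stage, but the larval gap was narrow. The pupal response was -1.15 ± 0.13 and the larval response 0.53 ± 0.13, a difference of -1.68 ± 0.18 (limma adjusted p = 4.73e-05). The larval call was near the threshold (limma adjusted p = 0.0466), whereas the difference passed under all 35 alternative settings, with a highest limma adjusted p of 0.00178.

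For 2 of the 105 the difference passed although neither response did. FBtr0072868 had a pupal response of 0.64 and a larval response of -0.71, a difference of 1.35 ± 0.27 (limma adjusted p = 0.0186). FBtr0084156 had a pupal response of -0.38 and a larval response of 0.57, a difference of -0.95 ± 0.22 (limma adjusted p = 0.0487). The first was no longer called in 5 of 35 alternative settings and the second in 24 of 35.

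Across the 105, the estimates at the 2 stages had opposite signs for 58 and the same sign for 47, but few of the opposite estimates were themselves large. Over all 15473 transcripts the sign was the same for 8601. The 105 were selected for their difference, and such a selection favours opposite signs. The response at the stage where it was smaller lay within 2-fold by its 95% interval for 82, passed the test in the same direction for 14 and in the opposite direction for 2, and had a wider interval for 7. Most called differences were thus of a response measured at 1 stage beside a response at the other stage that was under 2-fold.

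Every slide held 1 array of each group and so gave its own value of the difference. The sign was the same on all 5 slides for 101 of the 105 called transcripts and on 4 slides for the other 4. Over all 15473 transcripts it was the same on all 5 slides for 1431, or 9.25%. The called transcripts were chosen on the mean of these values, so their share describes the spread and is no separate support.

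**Figure D3:**
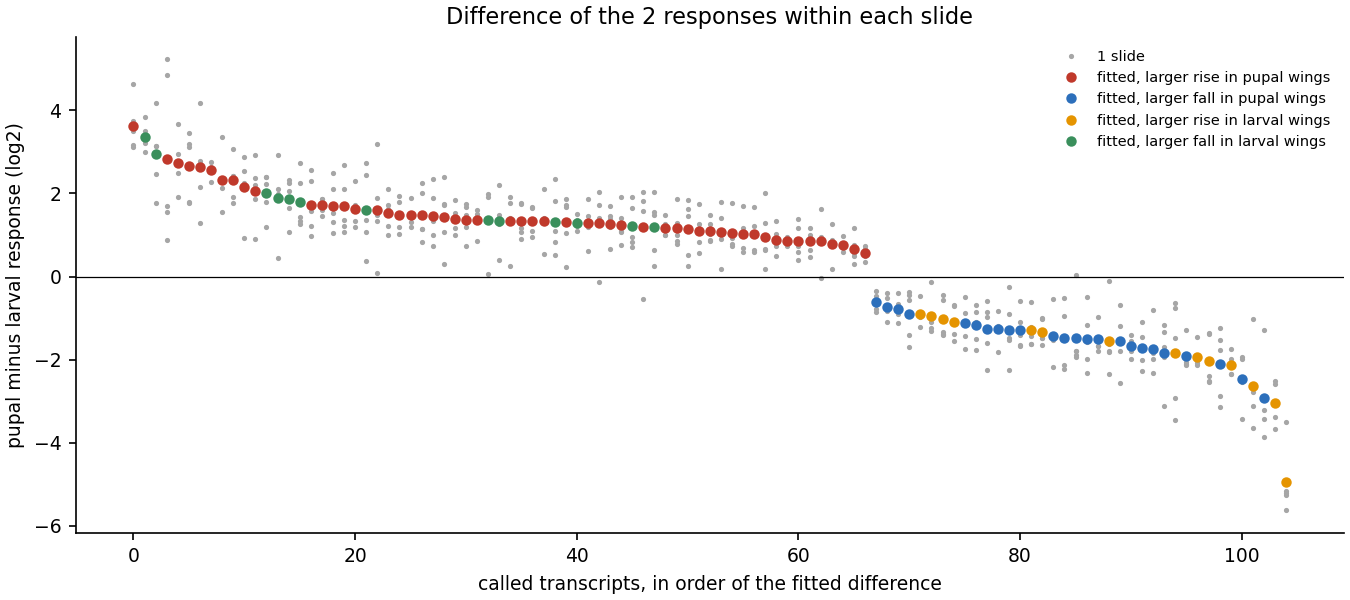
Pupal minus larval response on the log2 scale for the 105 called transcripts, in order of the fitted value, with the fitted value coloured by class and the 5 within-slide values in grey. For 101 transcripts all 5 grey points lie on the same side of 0 as the fitted value.

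A response called at 1 stage and not at the other is not by itself a difference between stages, and the difference was set out for all 604 transcripts that responded at either stage. Of these, 103 were called for the difference. For another 229 the 95% interval of the difference lay within 2-fold, and for 272 it reached past 2-fold, so a difference of that size was neither called nor excluded. These intervals are per transcript and not adjusted for the number of transcripts, and the 604 were selected on the same arrays.

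Among the 388 transcripts called in pupal wings only, the difference passed for 71 (18.3%). The interval lay within 2-fold for 135 and reached past 2-fold for 182. Among the 115 called in larval wings only, the difference passed for 16 (13.9%), the interval lay within 2-fold for 33 and reached past it for 66. The estimate had the same sign at the other stage for 282 of the 388 and for 86 of the 115. Over all 15473 transcripts the 2 estimates had the same sign for 8601. For most transcripts called at a single stage these data therefore do not show that the response differed between stages.

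At both stages 101 transcripts were called. The responses had the same direction for 99 of them, 45 higher and 54 lower in Tkv wings. The difference passed for 14 of these 99, larger in pupal wings for 6 and larger in larval wings for 8. For 61 the interval of the difference lay within 2-fold, and for 24 it reached past 2-fold. The median size of the difference was 0.27 over the 101, against 0.65 over the 388 called in pupal wings only and 0.74 over the 115 called in larval wings only. These classes are set by calls of the same 2 responses that are subtracted. The order of the medians is therefore partly built in and is a description.

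**Figure D4:**
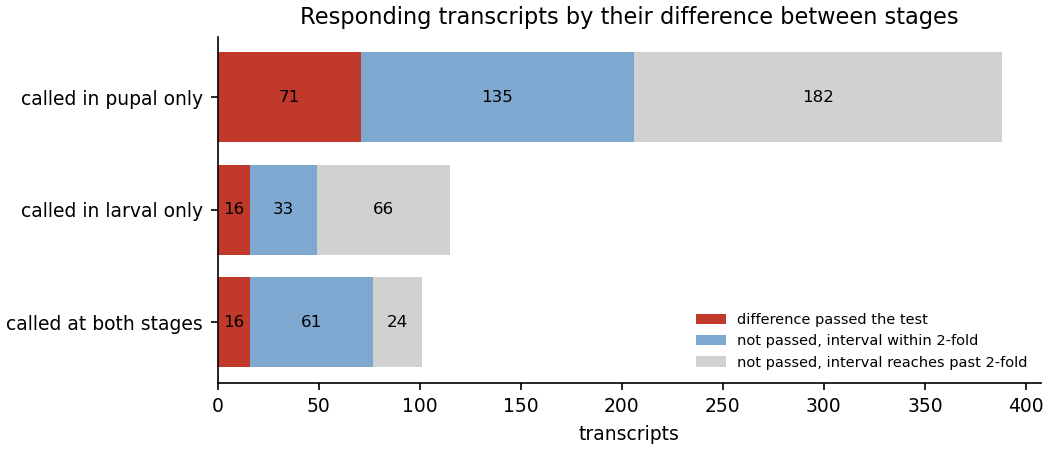
Number of transcripts whose response was called in pupae alone (388), in larvae alone (115) and at both stages (101), split by whether the difference of the responses passed the limma test and, where it did not, by whether its 95% interval lay within 2-fold. Red segments hold 71, 16 and 16 transcripts, and the grey segments, 182, 66 and 24, are those for which a difference was not called and one of 2-fold was not excluded.

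Precision depended on brightness. The median SE of the difference was 0.26 over all transcripts, against 0.18 for the pupal response alone, since the difference draws on 4 groups. It was 0.18 for the 7710 transcripts with a bright mean in all 4 groups and 0.34 for the 6524 with a dim mean in all 4. The difference was called for 42 of the bright transcripts (0.545%), 18 of the dim (0.276%) and 45 of the 1239 that were bright in some groups and dim in others (3.63%). Among bright transcripts that were not called, the interval lay within 2-fold for 91.9%, against 50.5% of the dim.

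For the 17 transcripts paired with a symbol, no difference passed the limma test (0.679% of all transcripts did), and the unadjusted p was under 0.05 for 1. Their differences ranged from -0.51 to 0.59, with 9 positive and 8 negative. The median size was 0.11, against 0.19 over all transcripts. All but NaPi-III and CG31178 were bright in all 4 groups, and over the 7710 such transcripts the median size was 0.13. Of those 7710, the interval lay within 2-fold for 91.9% of the ones not called. The 95% interval lay within 2-fold for 15 of the 17, the exceptions being NaPi-III and His4r.

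The chromatin genes on the array with a symbol were kis, a CHD-family remodeller that acts as a trithorax-group gene, HDAC3, a histone deacetylase, SuUR, a suppressor of replication in heterochromatin, and His4r, a replacement histone H4. The difference was 0.03 ± 0.24 for kis, 0.08 ± 0.13 for HDAC3, -0.18 ± 0.23 for SuUR and -0.51 ± 0.33 for His4r (SE). It was positive for 2 of the 4 and passed the limma test for none. The His4r value had a 95% interval of -1.21 to 0.19 and within-slide values of -0.02, 0.64, -0.44, -2.20 and -0.54. Without replicate 4 it was -0.09. His4r shares its protein with the other histone H4 genes, and whether its probes also read those was not tested.

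LanA encodes the alpha chain of laminin, a basement membrane protein, and alpha-Spec a chain of spectrin in the membrane skeleton. LanA averaged 11.33 in pupal Tkv wings against 11.41 in pupal controls, and 13.12 in larval Tkv wings against 13.05 in larval controls. Its difference was -0.15 ± 0.35, with an interval of -0.87 to 0.58. The difference for alpha-Spec was 0.09 ± 0.17, with an interval of -0.27 to 0.45. Tkv and control arrays of LanA overlapped at both stages.

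Among genes of transport, NaPi-III, a sodium-dependent phosphate transporter, had the largest difference of the named transcripts, 0.59 ± 0.33, with an interval of -0.09 to 1.27 and within-slide values of -0.25, 0.20, 0.46, 0.64 and 1.87. Fatp1, a fatty acid transport protein, read 10.43, 11.06, 10.96, 11.06 and 10.97 in pupal Tkv wings, against 11.40, 11.57, 11.07, 11.24 and 11.34 in pupal controls. In larval wings it read 10.59, 10.69, 10.68, 10.69 and 10.52 with Tkv, against 10.92, 10.57, 10.56, 10.70 and 10.84 in controls. Tkv arrays lay below the controls in pupae, by a narrow gap (11.06 against 11.07), and overlapped them in larvae. The pupal response of Fatp1, -0.43, did not pass the limma test of that stage (adjusted p = 0.0693). Its difference of -0.34 ± 0.18 was negative on all 5 slides and did not pass the limma test (adjusted p = 0.697, interval -0.71 to 0.03).

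The transcript of sle, a nucleolar protein, had the lowest p of the named group. Its difference was 0.48 ± 0.19 and positive on all 5 slides, with an interval of 0.08 to 0.88, and did not pass after adjustment over all transcripts (limma adjusted p = 0.466). Its pupal response was 0.16 ± 0.13 and its larval response -0.32 ± 0.13. For mio and Wdr24, subunits of the GATOR2 complex of the TORC1 pathway, the difference was -0.06 ± 0.18 and -0.05 ± 0.21. Uba1, the ubiquitin-activating enzyme, and rdx, a Cul3 adaptor that acts on Ci in Hedgehog signalling, had the values 0.11 ± 0.12 and 0.02 ± 0.14. For the kinase gene Dyrk3 the difference was -0.08 ± 0.22, and for fend, CG16974 and CG31178 it was 0.13 ± 0.25, -0.05 ± 0.21 and 0.12 ± 0.31. CG31178 was dim in all 4 groups, with 4.84 in pupal Tkv wings and 4.65 in larval Tkv wings.

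**Figure D5:**
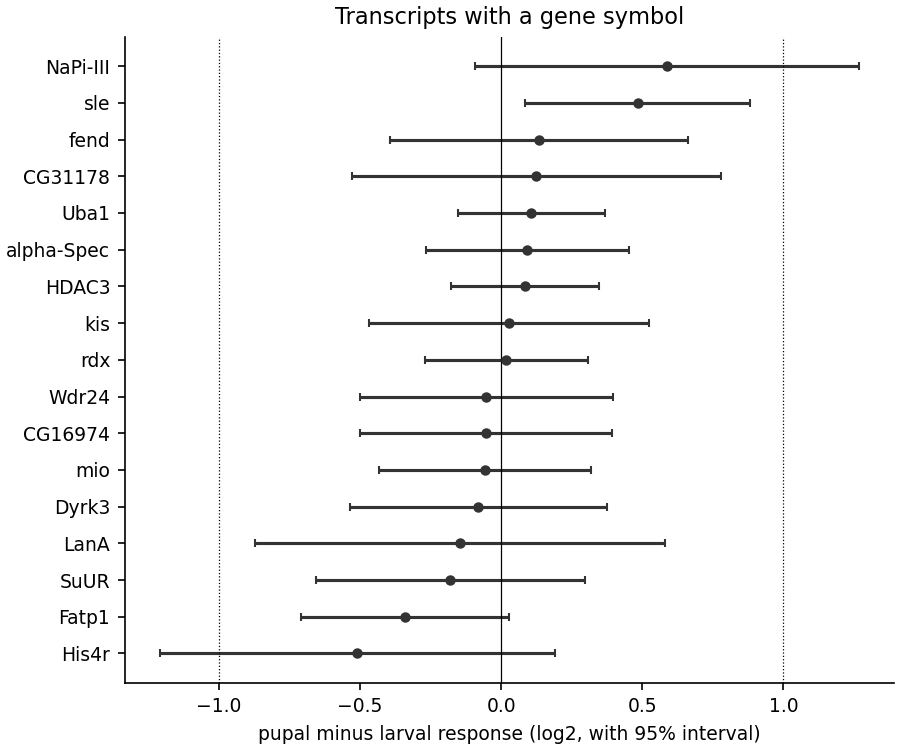
Pupal minus larval response on the log2 scale for the 17 transcripts with a gene symbol, as points with the 95% interval of the limma fit, ordered from the most positive to the most negative. Dotted lines mark a 2-fold difference, and the intervals of NaPi-III (to 1.27) and His4r (to -1.21) reach past them.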

How the data were processed

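Per the file headers, each array file gives an intensity (EXPRS) per transcript from 3 to 5 probe pairs, and per the submitters' processing notes the authors used RMA. The sources used here give no version or setting of it. A deposited series table holds the log2 of the same intensity values. RMA compresses differences near background, so differences of dim transcripts may be too small. Arrays have no depth; precision is limited by how many there are.

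Log2 intensities were quantile-normalized over the 20 arrays, which hides any shift shared by all transcripts, and none was filtered. The fit was limma 3.58.1 in R 4.3.3 (lmFit on 4 group means, contrasts.fit, eBayes, 16 residual degrees of freedom). Its code was run on simulated data with independent normal noise. That noise held no effect of slide or position, so the run says nothing about the fit where such effects are present. Other software was jsonlite 2.0.0, Python 3.11.15 and, for figures, matplotlib 3.10.9. The boundary of 8.64 is the lowest density between the modes (bandwidth 0.4). Intervals are 95%. The labels describe the samples as isolated independently and say no more of their relation, so the spread behind the p-values is that of these samples and may be technical.

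Of the transcript IDs, 44 occurred in synonyms of a RefSeq gene table (Release 6 assembly), 17 with a single symbol and 27 with several, which were not named. No sequence was available for them, and the sources used here do not name the build of the array, so positions are left out. Of 19 gene lists, only the chromatin list had 3 or more named members. The rule for names was all transcripts with a single symbol, the 2 most positive and 2 most negative called differences with the same sign on all 5 slides, and members of counts of 5 or fewer. Comparison, lists and classes were chosen with earlier results of these data known.

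The file names gave the slide and the position of each array on it. The slide followed the replicate number, with 1 array of every group per slide. Deviations from group means correlated at -0.19 to 0.29 between same-slide arrays of different groups (30 pairs, median 0.07) and at -0.22 to 0.26 between arrays of different slides (median -0.03). The closing section gives the alternatives.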

Additional observations from a re-analysis of the deposited data

Results flagged for a closer look

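The difference of the responses passed the limma test for 105 transcripts, led by FBtr0071612 (3.63), FBtr0082315 (3.36), FBtr0071698 (-4.95) and FBtr0081578 (-3.03, pupal minus larval response, log2). Among 84 groups of 5 arrays examined, 8 held 1 array that stood apart from the rest of its group. By chance about 1 in 20 groups would. For larval Tkv wings these were FBtr0071698 in replicate 1 (7.01), alpha-Spec in replicate 3 (12.44), mio in replicate 1 (10.02) and CG31178 in replicate 2 (5.01). For pupal Tkv wings it was Fatp1 in replicate 1 (10.43), and for pupal controls NaPi-III in replicate 1 (8.34). For larval controls they were kis in replicate 3 (12.99) and Dyrk3 in replicate 2 (13.05), all log2 intensities.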

How the results depend on the processing

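All called transcripts that were tested kept the sign of the difference in each of 37 refits or thresholds. For several of these the sign could not have changed. Another threshold leaves the estimate as it is. So do both models with a block for the slide, the deposited log2 values, leaving out the dimmest 25%, and trend and robust fitting. In each of these refits the difference for FBtr0071612 was 3.63, as in the main fit. Only in the other settings, such as other normalizations or fewer arrays, could the estimate move. The called transcripts were chosen for large differences on these same arrays, and 101 of the 105 had the same sign on all 5 slides. A change of sign was therefore unlikely there too, and the kept sign is no separate support. The 4 transcripts with the largest differences passed in all 35 refits, with differences of 3.38 to 3.79, 3.22 to 3.58, -5.32 to -4.77 and -3.16 to -2.88. The count of 105 was 124 with the slide as a fixed replicate block, of which 92 were among the 105, 141 with it as a random block, 88 with no further normalization, 104 with median centring, 102 with normalization within each stage, 105 from the series table, 123 without the dimmest 25%, 118 with trend and robust fitting and 150 with array weights. A paired reading therefore changed no call of the 4 transcripts. With a block for the slide their differences stay the same, so that reading could change only the p-value.

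With slide and position the counts were 66 in all, 39 positive, 43 with the response called in pupal wings alone (pupal only), 10 in larval wings alone (larval only), 1 opposite at both stages and 46 larger in pupal wings. At an adjusted p under 0.01 they were 51 in all, 28 positive, 23 negative, 33 pupal only, 7 larval only, 9 both, 1 opposite, 36 larger in pupal and 15 larger in larval wings. At 0.10 they were 60 negative, 25 larval only, 4 neither, 6 opposite and 42 larger in larval wings. Array weights gave 28 larval only, 5 neither, 4 opposite and 41 larger in larval wings. The random block gave 7 neither and 4 opposite, no further normalization 6 and 1, and the filter 5 neither. The opposite count was 1 with median centring and with trend and robust fitting. Where the count fell with fewer arrays or more terms, fewer residual degrees of freedom are part of the construction; other causes were not tested.

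Without 1 array or all arrays of a replicate number the ranges were 48 to 107 in all, 25 to 66 positive, 23 to 45 negative, 29 to 69 pupal only, 7 to 21 larval only, 9 to 15 both, 0 to 6 neither, 1 to 3 opposite, 33 to 75 larger in pupal and 15 to 34 larger in larval wings. None of the 17 named transcripts passed in any refit. A boundary of 8.78 between dim and bright (bandwidth 0.2), chosen after seeing the data, gave 41 bright and 20 dim called transcripts against 42 and 18.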

Other observations

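Among the 105 called transcripts, 3 pairs had consecutive ID numbers, picked out after their values were seen. Nothing used here says whether the members of a pair belong to 1 gene or share probes. FBtr0087444 and FBtr0087445 had nearly the same difference, -1.51 and -1.47, and their 20 log2 intensities had a Pearson correlation of 0.995 over arrays of 4 groups. FBtr0084404 and FBtr0084405 differed more, at 2.15 and 0.58 (0.765). FBtr0071697 and FBtr0071698 had differences of -2.64 and -4.95 (0.319). FBtr0071697 was higher in Tkv wings at both stages, by 3.09 in pupae and 5.73 in larvae, whereas FBtr0071698 was lower in pupal Tkv wings and higher in larval Tkv wings.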
